A study of Mus musculus with 12 samples.

Results

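The distal ends of the mouse autosomes were examined in peak lists of methylated DNA from the hippocampus. A peak was counted as subtelomeric when its start lay within 5000000 bp of the largest peak end seen on its chromosome in any of the 8 lists, and subtelomeric peaks that overlapped by at least 1 bp were merged. This gave 4731 merged subtelomeric regions of 88739 on the autosomes (5.33%), built from 16996 of 283788 autosomal peaks. Position alone chose them. The first region inside the limit began 40 to 73159 bp from it and the last peak outside began 3 to 68186 bp from it, and on 1 chromosome a region outside the limit overlapped the first region inside.

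The DNA came from adult male C57BL/6 mice (the C57BL/6J substrain in the study's methods) at postnatal day 70, in 4 groups. Control mice had dams with water only and stayed with them. Ethanol mice had dams that were offered 10% ethanol in water beside plain water during gestation and, by the study's methods, until pups were at postnatal day 10. Stress mice spent 3 hours of each day, between postnatal days 2 and 14, alone and away from the dam. Ethanol + stress mice had both exposures. Stress and Ethanol + stress mice are called separated here, and Control and Ethanol mice unseparated. Each group had 2 enriched libraries from separate mice, and both were compared with the input library of a further mouse of that group, so an effect of a group and an effect of its input cannot be told apart. In the study's design, pups of one litter were split between separation and none, and which mice were littermates is not given in the labels. Whole hippocampus was used, so the cells that carried a methylated stretch are not known.

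Mouse chromosomes are telocentric: the centromere sits beside one telomere, and the other end of the sequence is the free distal end. Subtelomeric DNA lies just inside the telomeric repeats, and in mammals it often holds gene families, repeats and sequence rich in G and C. Methylated DNA immunoprecipitation pulls down fragments with an antibody to 5-methylcytosine, which in mammals lies mostly at CpG sites. A fragment is caught more readily when it holds more methylated sites, so a peak marks a stretch that was enriched over background and is not a methylation level.

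The sequences under the strongest recurrent peaks show what the antibody caught at these ends. Each is 200 bases around the summit in the first library with the peak, taken from the RefSeq genome GRCm38.p6 (the build mm10), plus strand, 5′ to 3′, with CpG sites in capitals. The first 4 regions were found in all 8 libraries and are named by the gene the files assign. The stretches shown are chr16:93705515-93705714 for Dopey2, chr1:191934236-191934435 for Slc30a1, chr6:147893997-147894196 for Far2 and chr13:119488964-119489163 for Gm7120.
Dopey2: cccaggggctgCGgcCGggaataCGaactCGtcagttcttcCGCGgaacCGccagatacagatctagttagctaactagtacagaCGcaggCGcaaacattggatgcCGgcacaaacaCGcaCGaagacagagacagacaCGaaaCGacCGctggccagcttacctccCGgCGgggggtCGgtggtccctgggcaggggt
Slc30a1: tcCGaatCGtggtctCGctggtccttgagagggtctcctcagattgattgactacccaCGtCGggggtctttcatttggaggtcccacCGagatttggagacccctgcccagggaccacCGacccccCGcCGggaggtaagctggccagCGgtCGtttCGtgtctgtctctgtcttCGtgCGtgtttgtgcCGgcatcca
Far2: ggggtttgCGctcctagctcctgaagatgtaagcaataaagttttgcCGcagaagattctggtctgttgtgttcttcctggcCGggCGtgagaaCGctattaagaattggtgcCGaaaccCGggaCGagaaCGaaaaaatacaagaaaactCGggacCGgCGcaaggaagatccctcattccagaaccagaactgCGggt
Gm7120: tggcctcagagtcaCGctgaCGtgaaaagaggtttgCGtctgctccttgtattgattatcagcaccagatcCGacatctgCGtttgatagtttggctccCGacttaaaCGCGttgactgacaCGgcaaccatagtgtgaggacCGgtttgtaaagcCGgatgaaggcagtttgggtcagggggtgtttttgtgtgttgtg
They held 18, 15, 13 and 11 CpG sites. The Dopey2 region on chromosome 16 and the Slc30a1 region on chromosome 1 carried the same sequence in opposite orientation, with an identical run of 358 bases within the 500 bases around their summits. The next 3 stretches head the lists of imprinted genes, TNF receptors and chemokine receptors, at chr7:142542222-142542421, chr7:143626874-143627073 and chr9:123742759-123742958, and show how far CpG content varied.
Mrpl23: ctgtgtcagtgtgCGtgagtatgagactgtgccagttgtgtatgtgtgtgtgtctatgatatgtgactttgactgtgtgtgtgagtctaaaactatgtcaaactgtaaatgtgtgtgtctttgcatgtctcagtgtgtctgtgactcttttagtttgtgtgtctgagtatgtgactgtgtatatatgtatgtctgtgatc
Tnfrsf26: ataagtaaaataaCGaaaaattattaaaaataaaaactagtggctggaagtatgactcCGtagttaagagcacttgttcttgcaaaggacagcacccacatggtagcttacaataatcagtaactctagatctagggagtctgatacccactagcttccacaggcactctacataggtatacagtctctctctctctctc
Ccr9: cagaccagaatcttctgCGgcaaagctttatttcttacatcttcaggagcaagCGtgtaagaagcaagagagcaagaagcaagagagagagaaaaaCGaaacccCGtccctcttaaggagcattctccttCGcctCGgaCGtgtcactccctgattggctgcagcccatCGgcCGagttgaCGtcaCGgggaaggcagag
They held 1, 2 and 11 CpG sites. The last stretch, chr7:143295447-143295646, lies in the region at the start of the imprinted non-coding RNA Kcnq1ot1 and held 16. It was chosen for printing after its values were seen.
Kcnq1ot1: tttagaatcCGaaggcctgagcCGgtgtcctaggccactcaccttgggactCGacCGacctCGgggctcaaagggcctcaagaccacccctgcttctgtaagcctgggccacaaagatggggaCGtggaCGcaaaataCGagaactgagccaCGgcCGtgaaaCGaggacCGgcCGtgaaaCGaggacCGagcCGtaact

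The last 5 Mb were denser in peaks than the rest of the same chromosomes in every library. They held 17.3 and 16.6 peaks per Mb in Control, 28.7 and 13.7 in Ethanol, 24.1 and 29.9 in Stress, and 27.1 and 21.6 in Ethanol + stress. The rest held 8.76 to 20.1 peaks per Mb. The ratio of the densities was 1.597 on average, from 1.49 in Stress 2 to 1.81 in Control 2, and lay above 1 in 8 of 8 libraries. A two-sided exact sign-flip permutation test over libraries gave p = 0.0078, the smallest that 8 libraries can give (adjusted p = 0.0104 over 4 measures). The libraries share one genome, so this p reflects only the spread between libraries. In the last 2 Mb alone the ratio over all autosomes together was 0.988 (exact permutation p = 0.492), so no excess was seen there in the pooled count. Single chromosomes went both ways. The last 2 Mb held 37.6 peaks per Mb on chromosome 4, 27.8 on chromosome 16 and 3.94 on chromosome 17. Outside their last 5 Mb these chromosomes held 15.3, 10.9 and 17.5.

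Steps of 1 Mb located the excess. The mean density was 12.1 peaks per Mb in the last Mb, 16.3 in the next and 28.3 from 2 to 3 Mb. It was 27.6 to 32.9 in the steps from 2 to 9 Mb and 14.97 to 17.7 in those from 18 to 25 Mb, against 14.4 over whole autosomes. Averaged over chromosomes, the outermost 2 Mb thus resembled an average stretch, and the dense belt lay inside them. From 2 to 5 Mb the libraries held 1.78 to 2.17 times the density of the last 2 Mb, and 15 of 19 chromosomes had this order. CpG content was also lowest at the end, with 0.746 sites per 100 bp in the last Mb, 1.02 from 2 to 3 Mb and 1.23 from 7 to 8 Mb. Protein-coding gene starts ran the other way, with 14.8 per Mb in the last Mb and 11.7 from 2 to 3 Mb. The part of CpG content in the low density of the last 2 Mb was not tested.

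**Figure D1:**
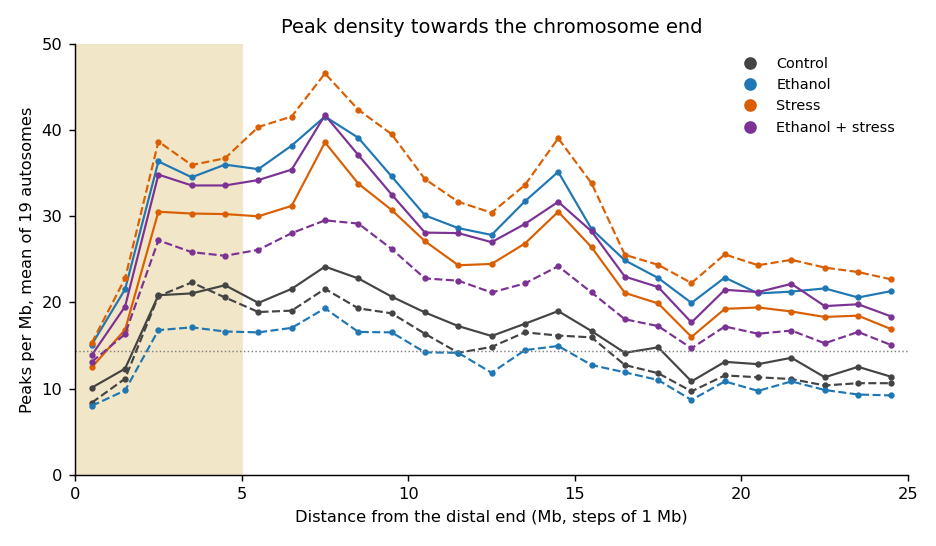
Peaks per Mb in steps of 1 Mb from the distal end of the 19 autosomes, with 1 line per library and the last 5 Mb shaded. Every library is lower in the last Mb (8 to 15.3 peaks per Mb) than from 2 to 3 Mb (16.8 to 38.7).

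The centromeric ends did not carry this density. The first 5 Mb with peaks held 9.54 to 19.2 peaks per Mb, and the distal ends held 1.58 times as many (1.43 to 1.69 over libraries, higher in 8 of 8, exact sign-flip permutation p = 0.0078).

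Chromosomes differed more than libraries did. The ratio lay above 1 in every library for 14 chromosomes and below 1 in every library for 5, namely chromosomes 3, 12, 13, 17 and 18. The highest ratios were 3.42 on chromosome 16 (3.20 to 3.87 over libraries), 3.20 on chromosome 4 (2.91 to 3.64) and 2.503 on chromosome 6 (2.23 to 2.90). These 3 ends held 394, 518 and 330 regions. The lowest were 0.231 on chromosome 17, 0.363 on chromosome 18 and 0.529 on chromosome 13, with 60, 55 and 89 regions. The end of chromosome 17 had 4 protein-coding gene starts and 42.2% repeat-masked sequence, whereas that of chromosome 4 had 93 gene starts and 22.0% masked sequence.

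**Figure D2:**
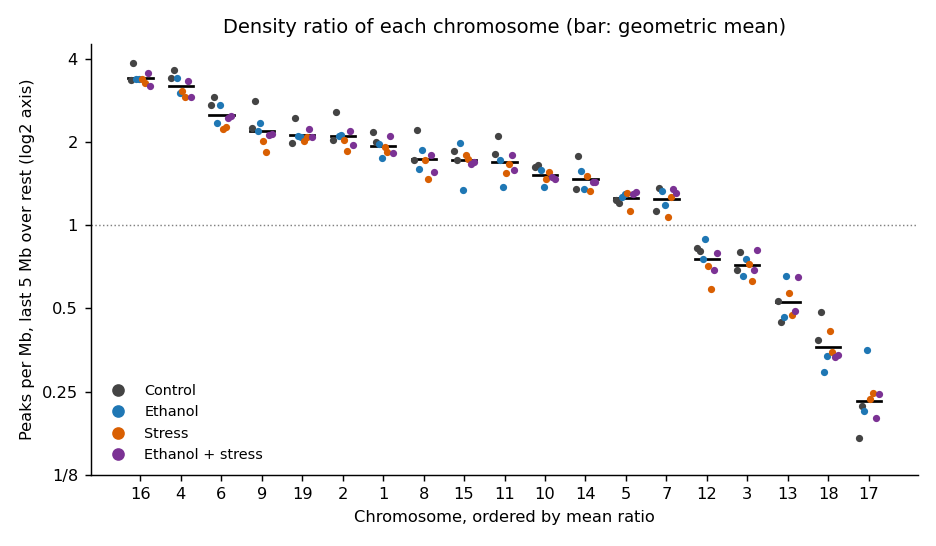
Density in the last 5 Mb over the rest of the chromosome, on a log2 axis, with 1 point per library and a bar at the geometric mean for each autosome. No chromosome has libraries on both sides of 1.

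Peak density and CpG content ran together over the ends. The last 5 Mb held 0.965 CpG sites per 100 bp against 0.846 in the rest, and 12.0 gene starts per Mb against 8.32. Over the 19 ends, density and CpG content had a Pearson r of 0.811 and a Spearman rho of 0.723, while density and repeat-masked share had an r of -0.827. These are descriptions over windows that share the same 8 libraries. Counted per 1000 CpG sites, the density was still 1.37 times that of the rest (1.27 to 1.55 over libraries), with 10 chromosomes above 1 in every library and 4 below. Against a line through the other 5 Mb windows, 15 of 19 ends had more peaks than their CpG content gave. Chromosome 16 was furthest above, with 37.1 peaks per Mb where the line gave 20.1, and chromosome 5 furthest below, with 21.1 where it gave 26.3. The excess was not particular to the last 5 Mb. Only 4 of the 19 ends were the densest 5 Mb window of their chromosome. Per 1000 CpG sites, the last Mb held 1.64 peaks and the next 1.87. The steps of 1 Mb from 2 to 5 Mb held 2.54 to 2.77, and those from 5 to 10 Mb 2.47 to 2.69.

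**Figure D3:**
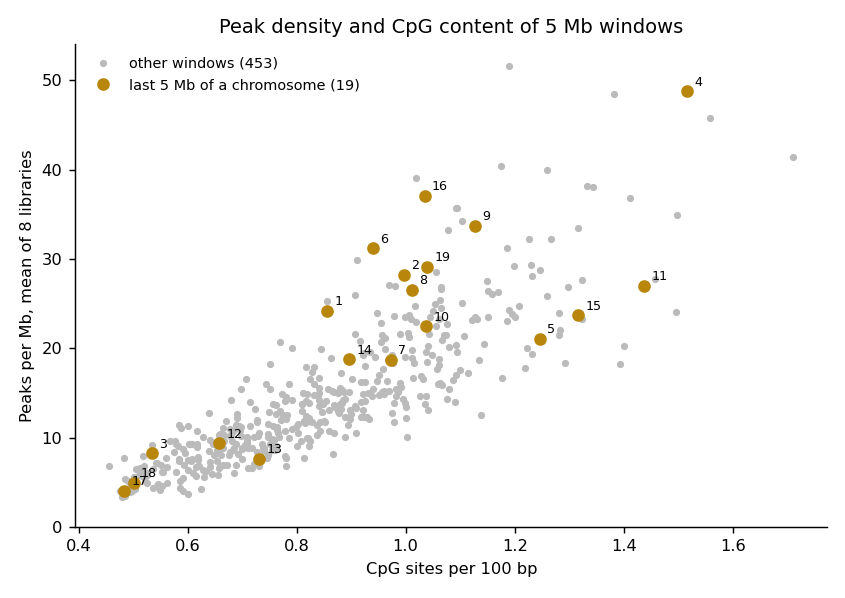
Peaks per Mb (mean of 8 libraries) against CpG sites per 100 bp in 472 windows of 5 Mb, with the 19 distal ends marked by chromosome number. The end of chromosome 4 has 48.8 peaks per Mb, the second highest of all windows, and that of chromosome 17 has 4.05.

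Subtelomeric peaks were slightly stronger and wider than other autosomal peaks. Fold enrichment is the signal of the enriched library over its local background. Its median was 7.33 to 8.64 at the ends and 6.97 to 8.22 elsewhere, a ratio of 1.03, higher in 6 libraries and equal in 2 (exact sign-flip permutation p = 0.031, adjusted p = 0.031). The median −log10 q was 1.06 times and the median width 1.02 times that of other peaks, each higher in 8 of 8 libraries (exact sign-flip permutation p = 0.0078, adjusted p = 0.0104). The fold ratio missed the threshold in the 2 Mb window and among the upper 50% of peaks. It also missed it (1.03 to 1.034, exact permutation p = 0.0625) without Control 1, Ethanol 1, Ethanol 2, Stress 1, Stress 2 or Ethanol + stress 1, each left out alone. Control 2 and Ethanol + stress 2 had equal medians, so 0.0625 is the smallest p those 6 cases allow. Their misses were fixed in advance and do not measure stability.

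Subtelomeric regions recurred in more libraries than other regions did. Of the 4731, 1564 (33.1%) had a peak in 1 library, against 39.0% elsewhere, and 589 (12.45%) had one in all 8, against 9.63%. Libraries with many peaks supplied most of the regions seen once: Stress 2 held 424 of them and Control 2 held 39. Regions are not replicates, so these shares carry no test.

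**Figure D4:**
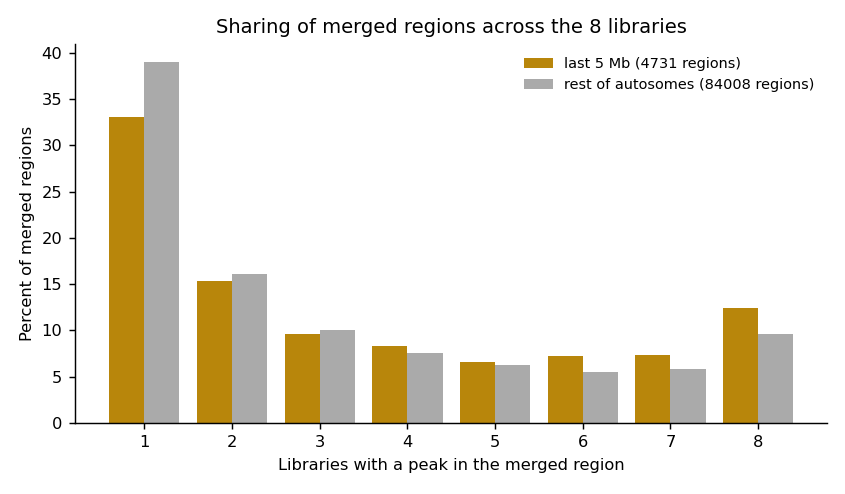
Percent of merged regions by the number of libraries with a peak, for the 4731 subtelomeric and the 84008 other autosomal regions. Subtelomeric regions have the smaller share from 1 to 3 libraries and the larger share from 4 to 8.

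Regions found in all 8 libraries were strong and mostly repetitive. Their best peaks had a median at the 93.6th percentile of fold within a library, and 77.2% of the 500 bases around the summit was repeat-masked at the median, against 30.5% for regions of 1 library. Those shares were 76.0% and 34.4% in the rest of the autosomes. Median CpG content differed: regions in all 8 libraries had a median of 6 sites within 250 bp of the summit at the ends and 12 elsewhere. Perfect tandem repeats of at least 30 bases, with units of up to 6 bases, lay within 250 bp of 21.1% of subtelomeric summits and 23.2% of others, while 8.11% of 500 bp tiles of the ends held one. The telomeric unit itself was rare. A pair of TTAGGG units in tandem, read on both strands, lay within the strongest peak of 6 subtelomeric regions (0.127%) and 31 others (0.0369%).

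Summit sequence was more often unique at the ends than elsewhere. The 30 bases at the summit occurred once on the autosomes for 78.6% of subtelomeric regions and 72.4% of others, and at least 10 times for 13.5% and 18.8%. Among regions in all 8 libraries the unique share was 65.5% at the ends and 57.8% elsewhere. How reads with several matching places were assigned is not given in the sources used here, so the place of a peak in repeated sequence is uncertain.

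The 10 strongest recurrent regions were those with the highest smallest percentile of fold over the 8 libraries. The region assigned to Slc30a1, a zinc exporter gene 21076 bp away, had fold enrichments of 54.2 and 42.2 in Control, 38.7 and 37.7 in Ethanol, 69.5 and 98.6 in Stress, and 84.3 and 69.9 in Ethanol + stress. The region assigned to Dopey2, 6318 bp from the gene that GENCODE calls Dop1b, had 44.5 and 39.0 in Control, 53.1 and 35.1 in Ethanol, 60.4 and 86.7 in Stress, and 74.1 and 58.7 in Ethanol + stress. In both, the 4 separated libraries lay above the 4 unseparated ones. The region assigned to Far2, a fatty acyl-CoA reductase gene 153193 bp away, had 28.6 to 37.0 in unseparated and 44.5 to 51.2 in separated libraries, again without overlap. None of these 3 summits was unique: their sequences occurred 14, 32 and 269 times on the autosomes, and Dopey2 and Slc30a1 share the run of 358 bases printed in part above.

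Regions with this order were found across the autosomes. Of all autosomal regions found in all 8 libraries, 4.18% had every separated library above every unseparated one and 0.427% had the opposite. Among the 589 subtelomeric ones, 32 (5.43%) and 3 (0.509%) did. With each fold divided by the median of its library, the background was 5.74% and 0.461%, and the subtelomeric counts were 40 (6.79%) and 3 (0.509%).

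The folds of the other strong regions overlapped between separated and unseparated libraries. The Gm7120 region, in an intron of Tmem267 on chromosome 13, was the only one of the 10 with a unique summit and had 26.8 to 42.6 in unseparated and 26.8 to 33.9 in separated libraries. An intron of Grk5, a kinase of G protein-coupled receptors, had 16.5 to 54.9 and 39.9 to 73.7. The region 3801 bp from Rnf223, a RING finger gene, had the most CpG sites of the 10 (49 within 250 bp) and values of 16.0 to 55.8 and 32.8 to 54.7. The Zbtb21 region was the outermost, 0.00366 Mb from the end used on chromosome 16, with 21.3 to 30.8 and 30.6 to 70.3. Over the library median its values no longer overlapped (2.61 to 3.79 and 4.095 to 8.55). Regions assigned to Itgb1, an integrin subunit gene, Ano10, an anoctamin gene, and Dok6, a docking protein gene, completed the set. Their folds were 20.9 to 40.3, 20.2 to 66.7 and 16.0 to 47.0 over the 8 libraries.

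**Figure D5:**
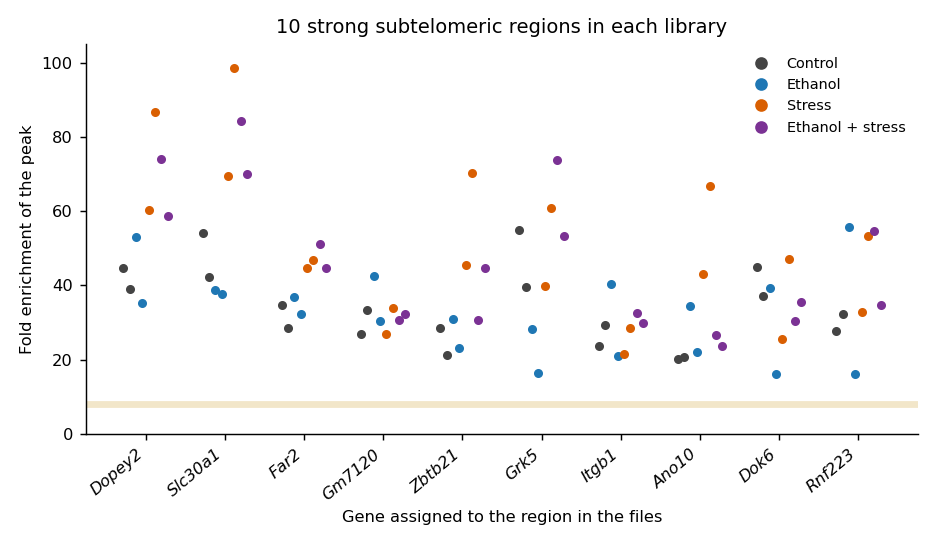
Fold enrichment of the 10 strongest recurrent regions in each of the 8 libraries. Separated libraries lie above unseparated ones for Slc30a1 (69.5 to 98.6 against 37.7 to 54.2), Dopey2 and Far2, and overlap for the other 7.

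The genes with most regions were mostly long, and the part of gene length in these counts was not tested. By their summits, 46.1% of regions lay in introns, 45.4% between genes and 5.56% in coding exons. Of 1138 protein-coding genes that start there, 501 (44.0%) had a region in the gene body, and 58 had 10 or more. Camta1, a calmodulin-binding transcription activator gene, held 80, and Cdh4, which encodes R-cadherin, held 75 in 456943 bp. Camta1 is 944555 bp long and runs from 150917322 to 151861876 on chromosome 4, across the limit at 151307758. Its regions were counted only on the distal side of that limit. Prdm16, a zinc finger transcription factor gene, held 65 in 320749 bp, 12 of them in all 8 libraries, the most of these 3 genes. Per length, Prdm16 was denser than Cdh4, with 20.3 per 100 kb against 16.4. No density per length is given for Camta1, because part of the gene lay outside the limit. The windows of 100 kb at chr4:154600001-154700000 (Actrt2 and Prdm16) and chr4:151400001-151500000 (Camta1) were among those with most regions, with 23 each against a median of 4.

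Promoter peaks, within 2 kb of a transcription start, were few. They made up a median of 3.17% of subtelomeric peaks per library (2.16% to 3.37%) and 2.70% of others (2.53% to 2.93%). Of the 1138 genes, 125 (10.98%) had one in some library and 10 had one in all 8. Genes were matched by name, so a gene named differently in the files and in GENCODE was missed. Both counts may therefore be too low. Those 10 were Bin2, Dock9, Hsd11b1, Sectm1a, Sgsh, Sh3bgr, Sipa1l2, Sycp2, Tdrd1 and Topaz1. Hsd11b1 encodes the enzyme that regenerates active glucocorticoids, and Sycp2, Tdrd1 and Topaz1 are known for roles in germ cells.

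Gene lists were read against all 1138 genes, of which 557 (48.95%) had a region within 2 kb of the gene body and 147 had one in all 8 libraries. Long genes have more room for a region, so the counts describe the lists and carry no test. Ion channel and neurotransmitter receptor genes had 21 of 25, and synapse and axon genes 18 of 24, with 12 and 11 genes that had a region in all 8 libraries. Developmental transcription factors had 18 of 36, type II keratins 19 of 26 and fibroblast growth factors 4 of 5. Mucins and keratin-associated proteins had 6 of 9, telomere and chromatin genes 5 of 10, TNF receptors 3 of 7, chemokine receptors 4 of 10 and zinc finger protein genes 6 of 15. Olfactory receptor genes had 9 of 76 and immunoglobulin heavy chain variable genes 1 of 69.

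Among channel genes, a region in a coding exon of Scn10a, a sensory neuron sodium channel gene, had 14.7 to 29.9 over the 8 libraries. Itpr2, an intracellular calcium release channel gene, had an intronic region with 12.3 to 23.2, and Kcnk18, a potassium channel gene, one with 11.6 to 27.7. Drd4 and Oprl1, which encode a dopamine receptor and the nociceptin receptor, had none.

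Among synapse genes, Cdh4 had 11.4 to 23.4 in an intron with 1 CpG site near the summit, and the region of Negr1, a neuronal adhesion gene, had 12.0 to 26.9 with a summit sequence found 1119 times. Plxna2, a semaphorin receptor gene, had 11.6 to 30.8.

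Prdm16 led the transcription factor and chromatin genes. Intronic regions of Prdm16, Camta1, Erg and Sim2 had 16.6 to 31.9, 11.2 to 20.04, 9.82 to 16.1 and 7.50 to 17.1. Cbx2, which encodes a Polycomb protein, had a coding exon region in 7 libraries, and Cbx8 had an untranslated-region peak in Stress 2 alone. Chd5, a chromatin remodeller gene, had a region in 5 libraries with 6.89 to 12.2, and Dyrk1a, a kinase gene, in 3. The sirtuin genes Sirt3 and Sirt7 had one in 1 library each.

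The remaining lists ranged from recurrent regions to single calls. Fgf14, a growth factor homologue that acts on neuronal sodium channels, had 11.6 to 44.2 in 8 libraries at a summit sequence found 377 times, whereas Fgf4 had a region in 2 libraries and Fgf3 and Fgf10 in 1. Ccr9, a chemokine receptor gene, had 12.1 to 28.7 and Cx3cr1, the fractalkine receptor gene of microglia, 7.26 to 15.1, while Ccr8 had one in 5 libraries. Krt7 and Muc6 had one in 8 libraries with 6.61 to 15.3 and 4.53 to 7.46. Those of Krt5, Krt75 and Krt78 were in 7, 6 and 6 libraries, and those of Muc5ac, Krtap5-3 and Muc2 in 6, 5 and 1. Olfr538, Olfr765, Olfr764-ps1 and Olfr819 had a region in 8 libraries each. Zfp385a, Zfp750, Zfp972 and Zfp941 had one in 7, 5, 3 and 2 libraries, and Ighv8-11, Tnfrsf22, Tnfrsf25 and Tnfrsf26 in 1 library each.

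The imprinted genes of distal chromosome 7 had a region for 17 of 22 genes, and 3 genes had one in all 8 libraries. These were Mrpl23, Kcnq1 and Kcnq1ot1, and Kcnq1 and Kcnq1ot1 shared the same region. In an imprinted cluster one parental copy of a gene is silent, and control regions methylated on one parental copy set this state. In the 1 Mb from Tnnt3 to Phlda2 there were 65 regions, 6 in all 8 libraries and 23 in 1. The region chr7:143295015-143296733 lies in an intron of Kcnq1 and covers the 5′ end of Kcnq1ot1 at 143296549, which in mouse coincides with the control region of this domain. It held 41 CpG sites within 250 bp of the summit, exceeded by 7 subtelomeric regions, in unique sequence free of masked repeats.

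Fold enrichment at Kcnq1ot1 was 4.31 and 4.91 in Control, 25.3 and 11.6 in Ethanol, 8.62 and 13.6 in Stress, and 16.5 and 11.8 in Ethanol + stress. Both Control libraries lay below all 6 treated ones, at the 1.25th and 3.17th percentile of their own autosomal peaks against the 62.7th to 97.6th. Over the library median the values were 0.558 and 0.599 in Control and 1.12 to 3.11 in the treated libraries. The order itself was common: 8.35% of all autosomal regions found in all 8 libraries had Control below all treated libraries and 0.945% had Control above, and 49 (8.32%) and 11 (1.87%) of the 589 subtelomeric ones did. Over the library median the background was 13.1% and 0.738%, and the subtelomeric counts were 78 (13.2%) and 10 (1.70%). The region was singled out after its values were seen and was not tested.

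None of the other 5 regions found in all 8 libraries in this stretch had that order. The region chr7:142999068-143000055, assigned to Tspan32, had the opposite order, with 11.5 and 12.63 in Control and 5.54 to 11.45 in the treated libraries. That order was narrow, resting on 11.5 in Control 1 against 11.45 in Ethanol + stress 2. Its values over the library median are not given. The region chr7:142972253-142973042, assigned to Ascl2, had 11.9 and 11.7 in Control, within the 6.61 to 18.2 of the treated libraries. The region near Mrpl23, a mitochondrial ribosomal protein gene beside H19, had 12.1 and 7.57 in Control and 6.32 to 12.2 in the treated libraries. A pair of regions that the files assign to Igf2, a fetal growth factor gene, at chr7:142614494-142616915 and chr7:142617706-142620621, had 12.2 and 12.0, and 13.6 and 13.2, in Control, within the 8.11 to 22.1 and 8.87 to 16.7 of the treated libraries. A region within H19, a non-coding RNA expressed from the maternal copy, had a peak in both Ethanol and both Stress libraries only. Over all autosomal regions, 2.83% had peaks in both Ethanol libraries and neither Control library, and 8.94% did so for Stress. Within 2 kb of the gene body, Tspan32 and Ano1 had regions in at most 7 and 6 libraries.

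The number of subtelomeric peaks moved with the number of all peaks, and no comparison of groups passed its test. Control had 1640 and 1580 subtelomeric peaks of 26830 and 23346 autosomal ones, and Ethanol had 2727 and 1298 of 44834 and 22022. Stress had 2288 and 2840 of 39169 and 50453, and Ethanol + stress 2573 and 2050 of 42066 and 35068. Stress and Ethanol + stress lay above Control without overlap, by 954 and 702 peaks on average (exact permutation p = 0.3333 each, the smallest that 2 against 2 libraries allow). Separated libraries had 626.5 more than unseparated ones on average (exact permutation p = 0.143, adjusted p = 0.643 over 18 comparisons). Without Ethanol 1 that difference was 932 (exact permutation p = 0.0286, unadjusted), and with an equal number of peaks from each library it was -37.5.

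As a share of autosomal peaks, subtelomeric peaks made up 6.11% and 6.77% in Control, 6.08% and 5.89% in Ethanol, 5.84% and 5.63% in Stress, and 6.12% and 5.85% in Ethanol + stress. Ethanol and Stress lay below Control without overlap (exact permutation p = 0.3333 each), and Ethanol + stress overlapped Control. The mean of separated libraries minus that of unseparated ones was -0.356 percentage points (exact permutation p = 0.114, adjusted p = 0.643). The log2 ratio of median fold at the ends to that elsewhere differed by -0.022 to 0.030 between groups. Its interaction, the separation effect with ethanol minus that without, was -0.078 (adjusted exact permutation p from 0.643 to 1 over these comparisons).

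A region counted as gained when it was called in 2 of 2 treated and 0 of 2 Control libraries, and as lost when it was the other way round. Over all autosomal regions, 2.83% were gained and 0.898% lost in Ethanol, 8.94% and 0.793% in Stress, and 5.55% and 0.641% in Ethanol + stress. Among subtelomeric regions, 128 (2.71%) were gained and 41 (0.867%) lost in Ethanol, 401 (8.48%) and 49 (1.04%) in Stress, and 252 (5.33%) and 27 (0.571%) in Ethanol + stress. Subtelomeric shares were near the background throughout. The 3 comparisons share the Control libraries, and 5 of 6 treated libraries had more autosomal peaks than both Control libraries. With an equal number of peaks from each library, 3.29% of subtelomeric regions were gained and 4.84% lost in Stress, and 2.59% gained and 2.89% lost in Ethanol + stress. The share over all autosomal regions was not computed at this setting, so these values say nothing particular about the ends.

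The strongest regions gained in Ethanol lay between genes. The region assigned to Fam213b had 11.9 and 9.82 in Ethanol, that of Actrt2, an actin-related gene, 10.6 and 10.9, and that of Lrrc7, a postsynaptic density gene 313340 bp away, 11.02 and 9.47. The Lrrc7 summit occurred 2006 times on the autosomes. These gains were not limited to Ethanol. The Fam213b and Lrrc7 regions had peaks in every treated library, and the Actrt2 region had them in both Stress libraries and Ethanol + stress 2. Regions lost in Ethanol were assigned to Vamp3, in an intron of Camta1 (11.9 and 10.6 in Control), Tmprss2 (11.9 and 10.3) and Ajap1, in its intron (8.99 and 12.6). All 3 had peaks in both Ethanol + stress libraries.

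The strongest regions gained in Stress had unique summits. A region in an intron of Lrp1, a lipoprotein receptor gene, which the files assign to Nxph4, had 17.0 and 17.1 in Stress. It also had peaks in both Ethanol libraries (9.72 and 8.39) and in Ethanol + stress 1 (6.69). A coding exon of Nckap5l, assigned to Tmbim6, had 14.2 and 20.5 in Stress and 17.1 and 12.7 in Ethanol + stress, where it also ranked first. Ethanol 1 had a peak there as well (11.3). The region assigned to Setd4, 122433 bp away, had 14.7 and 13.3 in Stress, 12.3 in Ethanol 1, and 9.01 and 10.07 in Ethanol + stress. Regions lost in Stress were assigned to Rasl11a (10.2 and 12.9 in Control), to Itpr2 in its intron (10.2 and 12.6) and to Scn11a, a sensory neuron channel gene (9.82 and 10.3). The Rasl11a region had no peak in Ethanol + stress either and ranked first there among regions lost.

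In Ethanol + stress, a coding exon of Cbr3, a carbonyl reductase gene, was gained with 16.2 and 12.6, and it had a peak in all 6 treated libraries and no Control library. An intron of Dscam, a neuronal adhesion gene, assigned to Pcp4, was gained with 11.6 and 12.6. This region also had peaks in Ethanol 1 (6.87) and Stress 2 (6.85). A region in an intron of Lrp1 (8.15 and 8.48 in Control) and one assigned to Nphp4, 258137 bp away (8.57 and 8.19), were lost. Over all autosomal regions, 0.563% were gained in all 3 treatments and 0.121% lost in all 3, and 29 (0.613%) and 3 (0.0634%) of the 4731 subtelomeric regions were. The same Control libraries enter all 3 comparisons.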

How the data were processed

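MeDIP-Seq peak lists of 8 enriched hippocampal libraries were used (4 groups, 2 libraries each). The 4 input libraries had no peak list. Per the submitters' processing notes, reads were aligned with HISAT2 2.1.0 to mm10. The authors called peaks with MACS in each library against the input of its group at q under 1e-05 and assigned the nearest RefSeq gene. Deposited values were the fold enrichment, a ratio over local background, the −log10 q-value, and a summit tag score that was not used here. Read totals were not given, so depth is unknown and the number of peaks per library (22022 to 50453 on the autosomes) stands in for it.

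Regions were merged at 1 bp of overlap with Python 3.11.15, numpy 2.4.6 and pandas 2.3.3. Sequence came from GRCm38.p6 and genes from GENCODE M21. Libraries were the units of exact two-sided permutation tests, with Benjamini-Hochberg adjustment over 18 group comparisons and over 4 measures within libraries. With so few mice, p-values reflect only the spread between these libraries. Scripts were tested on simulated data. Named regions were the 10 recurrent ones with the highest smallest percentile of fold (1 per gene), the 3 strongest gained and lost per treatment, up to 4 per gene list, and the 3 chromosomes at each extreme of density and the 3 densest windows of 100 kb, apart from some items that are not reported here. The regions and lists were chosen with earlier results of these data known. Replicate numbers did not pair the libraries. Tandem repeats, summit copies, the centromeric ends and fold by separation were added after the data were seen.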

Additional observations from a re-analysis of the deposited data

Results flagged for a closer look

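The ethanol effect on the share of subtelomeric peaks had opposite signs with and without separation. Among separated mice, Ethanol + stress (6.12% and 5.85%) lay above Stress (5.84% and 5.63%), by 0.2465 percentage points. Among unseparated mice, Ethanol (6.08% and 5.89%) lay below Control (6.11% and 6.77%), by -0.452 points. The exact permutation test of this interaction gave p = 0.143 (adjusted p = 0.643). The density ratio moved the same way, by 0.069 in separated and -0.1285 in unseparated mice, and the interaction of the density ratio was not tested. Both measures come from the same peaks. Without Control 2 the difference between Ethanol and Control was -0.124 points and the interaction 0.3265 points, against 0.698 with all libraries.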

How the results depend on the processing

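The density ratio stayed above 1 under all alternatives but 1: it was 1.92 with a 10 Mb window, 1.37 per 1000 CpG sites, 1.36 without the 3 chromosomes with the highest density ratio and 0.988 with a 2 Mb window. The ratio of median fold was 1.015 (exact permutation p = 0.0625) in the upper 50% of peaks by q and 1.027 (exact permutation p = 0.0625) with a 2 Mb window, and that of −log10 q was 1.03 (exact permutation p = 0.0625) with an equal number of peaks per library (22022). That setting turned the differences in peak number: -87.5 for Ethanol, -107.5 for Stress and -55 for Ethanol + stress against Control, -37.5 for separation, -17.5 for ethanol exposure and 140 for the interaction. It also gave 2.92% of subtelomeric regions lost in Ethanol, 3.29% gained and 4.84% lost in Stress, and 2.59% gained and 2.89% lost in Ethanol + stress. The share over all autosomal regions was computed for none of the alternative settings. Regions lost in Ethanol + stress were 0.952% in the upper 50% of peaks and 0.317% with a 2 Mb window. With a 2 Mb window the share differed by 0.0392 points with ethanol exposure. Differences in the log2 ratio of median fold turned to 0.0349 (Ethanol + stress), 0.00907 (ethanol exposure) and 0.0258 (separation) in the upper 50% of peaks, to -0.0129 (Stress) and 0.0127 (ethanol exposure) with equal numbers, and to -0.00191 (Ethanol) and 0.00198 (separation) with a 2 Mb window. The cause of these turns was not tested.

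Leaving out 1 library at a time gave density ratios of 1.57 to 1.61 and fold ratios of 1.03 to 1.038. The fold ratios had exact permutation p = 0.0625 in 6 of the 8 cases, the smallest p those cases allow. Peak numbers differed by -312 to 1117 for Ethanol, 678 to 1230 for Stress and 440 to 963 for Ethanol + stress, by 455 to 932 for separation, by -113 to 363 for ethanol exposure and by -1315 to -287 for the interaction. Shares differed by -0.7795 to -0.124 points for Ethanol, -1.03 to -0.377 for Stress, -0.787 to -0.131 for Ethanol + stress, -0.463 to -0.1715 for separation, -0.256 to 0.124 for ethanol exposure and 0.3265 to 0.941 for the interaction, where the values nearest 0, and 0.124 for ethanol exposure, were those without Control 2. Log2 fold ratios differed by -0.00823 to 0.0678 for Ethanol, -0.0115 to 0.0645 for Stress, -0.0602 to 0.0159 for Ethanol + stress, -0.0304 to 0.00068 for separation, -0.0265 to 0.00452 for ethanol exposure and -0.111 to -0.0605 for the interaction, the last at exact permutation p = 0.0286 without Control 1. With 1 library of a group left, fewer calls are needed, and 4.86% to 22.5% were gained and 1.42% to 7.82% lost in Ethanol, 12.8% to 27.1% and 2.23% to 5.13% in Stress, and 8.89% to 19.9% and 1.30% to 4.62% in Ethanol + stress. These are shares of subtelomeric regions, without the share over all autosomal regions beside them. The share of regions in every remaining library was 13.2% to 16.4%.

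With replicate number as a replicate block, the separation difference of 626.5 peaks had exact permutation p = 0.167, and p ran from 0.167 to 1 over the 18 comparisons. The block limits which libraries are permuted and leaves the differences as they are. The difference in called regions between replicate 1 and replicate 2 of a group correlated between groups at -0.0246 to 0.064 over 4731 regions. This asks only whether same-numbered libraries deviated together. With 2 mice per group and unknown read depth, a missing peak may be a missed call.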

Other observations

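The 29 subtelomeric regions gained in all 3 treatments, which share the Control libraries, lay on 15 chromosomes. After Cbr3, those with the highest smallest percentile of fold were assigned to Katnal1, a microtubule-severing gene of chromosome 5 (57.7), Lrrc7 (56.3), Fam213b (49.3) and Vash2, a vasohibin gene of chromosome 1 (47.6). These names follow the files' nearest gene and were read after the values were seen. In the imprinted stretch of chromosome 7, a coding exon region of Cdkn1c, a cell cycle inhibitor gene, had 51 CpG sites near its summit. It had a peak in Ethanol 1 (7.39), Stress 1 (5.64), Stress 2 (14.5), Ethanol + stress 1 (8.16) and Ethanol + stress 2 (8.89), and none in Control or Ethanol 2. It thus counted as gained in Stress and in Ethanol + stress, as did 8.94% and 5.55% of all autosomal regions.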
